A study of Mus musculus with 115 samples.

Results

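The comparison set oocytes of db/db mice against oocytes of ob/ob mice. It used the 4 libraries labelled db/db and oocyte (titles ending in b92, b93, b124 and b125) and 3 of the 4 libraries labelled ob/ob and oocyte (b102, b134 and b144). Library b107, the fourth ob/ob oocyte library, was left out because its transcriptome differed from that of the others, a choice made from measured values. Cells with at least 1000 genes and 3000 UMIs (unique molecular identifiers, which count tagged mRNA molecules) were kept. These were 39, 87, 35 and 33 db/db cells and 95, 45 and 37 ob/ob cells, 371 of the 6579 cells kept in the libraries used here. Both genotypes carry the strain label C57BL/6. The cells came from ovaries, were picked singly by hand after collagenase treatment and carried a cell barcode within each pooled library. The labels name no animal, age or follicle stage, so each library counted as 1 replicate. A p-value here therefore sets a difference against the scatter of libraries alone, part of which may be technical. Wild type oocytes (12 libraries) were of another strain by their label, C57BL/6-129Sv, and had lower library numbers. Their levels are therefore given beside the mutants without a test.

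The ob allele disrupts Lep, the gene of the adipocyte hormone leptin, and the db allele disrupts Lepr, the gene of its receptor. Both genotypes overeat, become obese and are infertile or subfertile, and they therefore share most of their metabolic setting while differing in whether the hormone or the receptor is lost. An oocyte grows for weeks inside its follicle, stores mRNA, ribosomes, mitochondria and lipid for the embryo and secretes growth factors and zona pellucida proteins. Its mitochondria come from the mother alone and replicate their own genome, which encodes subunits of the respiratory chain.

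The 4 db/db libraries held between 4365254 and 19719043 UMIs each, the 3 ob/ob libraries between 6043865 and 21249964. Of the 17 oocyte markers, 16 were present in all 7 libraries at 31.4 CPM (UMI counts scaled to an equal library total) or more, and Sohlh1 lay between 0 and 4.2 CPM. Pairs of libraries of 1 genotype correlated at r = 0.94 to 0.977 over 11461 genes, pairs of different genotype at 0.923 to 0.965, and library b107 with these 7 at 0.685 to 0.764. These are descriptions across genes. Mitochondrial transcripts took 1.34% to 2.02% of UMIs in db/db, 2.31% to 5.17% in ob/ob and 17.6% in library b107. The median share per cell overlapped between genotypes, at 1.93% to 5.46% over the db/db libraries and 3.87% to 8.97% over the ob/ob libraries. Zp3 stood at 112.2 CPM in library b107 against 3176 to 5247 CPM in the 7. Deep cells weigh most in a summed library: the deepest cell held 6.99% to 21.3% of the UMIs of a db/db library and 8.57% to 21.1% of an ob/ob library. Of 96 barcode numbers in the 7 libraries 95 were used by more than 1 library, and no pair of cells had identical counts.

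The alleles' own genes were read first. Lep had 3 UMIs over the db/db libraries and 4 over the ob/ob libraries. Lepr stood at 10.2, 6.34, 5.88 and 3.87 CPM in the db/db libraries and at 24.5, 26 and 31.4 CPM in the ob/ob libraries, so the groups did not overlap. Its log2 change was -2.07 ± 0.31 (SE), with an edgeR quasi-likelihood adjusted p of 0.00256. Over the 12 wild type oocyte libraries the median of Lepr was 10.9 CPM (0.589 to 28.6), nearer db/db than ob/ob. Lepr reads still present in db/db were not assigned to a transcript form, so neither gene checks the genotype labels. The call on Lepr was lost with library b107 added, where Lepr was at 4.06 CPM, with all 20 oocyte libraries in 1 fit and with limma on the mean CPM of cells. Of the 24 tested genes of the leptin and insulin signalling list, Lepr was the 1 that passed, and the list's median log2 change was 0.13.

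Of 11568 genes tested, 220 passed an adjusted p of 0.05, which is 1.90%. Of these, 88 were higher in db/db (0.761%) and the others lower (1.14%). An unadjusted p below 0.05 was reached by 1376 genes (11.9%). In other fits of the same comparison the share that passed was 3.49% with DESeq2, 1.20% with limma, 0.460% within library numbers above 110 and 1.45% within those up to 110. The median log2 change over all genes tested was 0.02, and the median absolute change of the 220 genes was 1.90. Among them 100 genes differed by a log2 of 2 or more, 49 up and 51 down in db/db. In 219 of the 220 genes the 4 db/db values and the 3 ob/ob values did not overlap, which also held for 13.1% of all genes tested. The exception was Aldh1a1. A few genes were almost undetected in 1 genotype: 8 of the higher genes had at most 3 UMIs over all ob/ob libraries, and 6 of the lower genes had at most 3 over all db/db libraries.

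**Figure D1:**
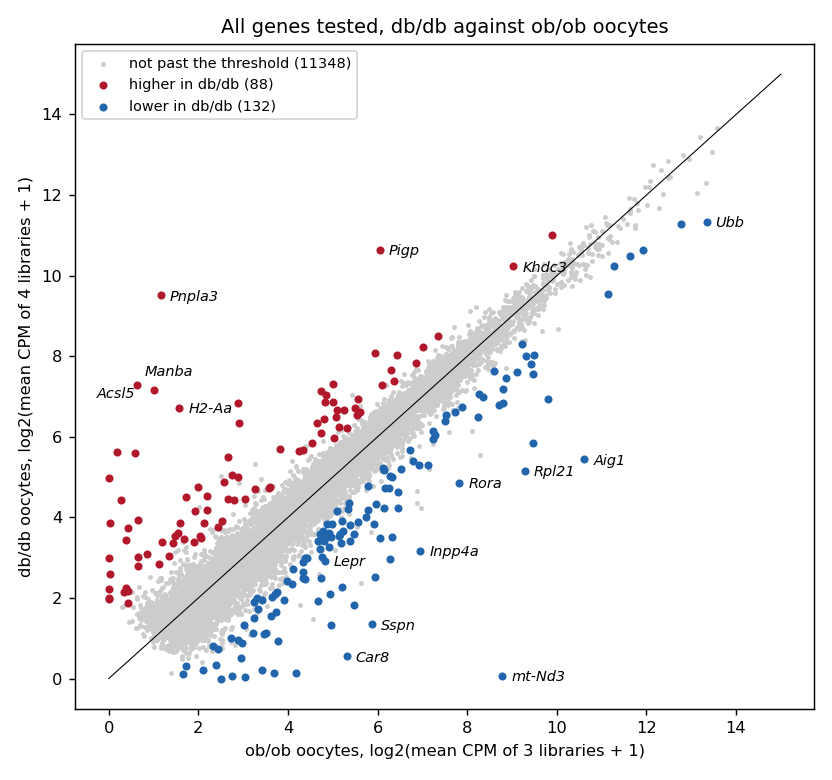
Mean level of each tested gene in ob/ob (x axis) and db/db oocytes (y axis), both as log2(mean CPM + 1), with genes past the adjusted p threshold in red (88 higher in db/db) and blue (lower in db/db). Most genes lie on the diagonal, Pnpla3, Manba, Acsl5, H2-Aa and Pigp stand far above it, and mt-Nd3, Car8, Sspn, Aig1 and Rpl21 far below it.

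A pair of genes of lipid handling, Pnpla3 and Acsl5, were singly higher in db/db than in ob/ob, without the rest of their lists. Wild type oocytes lay far above ob/ob in Pnpla3 (median 331 CPM) but with ob/ob in Acsl5 (median 0.223 CPM). Pnpla3, a lipid droplet acyltransferase and lipase of triglycerides and retinyl esters, was at 539, 759, 909 and 707 CPM in db/db and at 1.39, 1.06 and 1.26 CPM in ob/ob. Every db/db library lay far above every ob/ob library, and the log2 change was 9.16 ± 0.34 (SE; edgeR adjusted p = 5.15e-09). Acsl5, which couples long-chain fatty acids to coenzyme A, was at 197, 51.6, 140.6 and 177 CPM in db/db and at 0.239, 1.59 and 1.26 CPM in ob/ob (log2 change 7.39 ± 0.65, edgeR adjusted p = 2.4e-05). Library 93 was the lowest of the db/db group and still above all of ob/ob. These were single genes of their lists. Of 13 tested genes of lipid droplet storage and lipolysis 1 rose and 0 fell (median log2 change 0.11), and of 11 tested genes of fatty acid activation and uptake 1 rose and 0 fell (median -0.07). Acsl3, a relative that acts on forming lipid droplets, was at 195 to 309 CPM in db/db and 127.01 to 205 CPM in ob/ob (adjusted p = 0.402). Plin2, a coat protein of lipid droplets, was at 6.46 to 14.8 and 8.37 to 14.9 CPM (adjusted p = 0.837), and Pnpla2, the main triglyceride lipase, at 3.23 to 12.3 and 3.23 to 9.42 CPM (adjusted p = 0.988). Of 25 tested fatty acid oxidation genes none passed in edgeR (median 0.07), and 0 were below an unadjusted p of 0.05. Nsdhl, an enzyme of cholesterol synthesis, was the 1 of 19 genes of that pathway that passed, at 36.3 to 68.7 CPM in db/db and 14.7 to 23.6 CPM in ob/ob (log2 change 1.37 ± 0.29, adjusted p = 0.0236). It missed the threshold without library b92, b93, b134 or b144 (adjusted p from 0.0655 to 0.161).

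Genes of the lysosome, of membrane anchors and of metal uptake also rose singly. Manba, the lysosomal beta-mannosidase, was at 182, 188, 119.6 and 130.2 CPM in db/db and at 0.0956, 0.664 and 0.898 CPM in ob/ob. The groups were far apart (log2 change 8.57 ± 0.51, edgeR adjusted p = 4.16e-07). Manba was the 1 of 21 tested lysosomal hydrolase genes that passed, and the list's median was 0.17. Pigp, a subunit of the complex that starts glycosylphosphatidylinositol anchors, was at 1985, 1258, 1627 and 1541 CPM in db/db and at 50.5, 74.1 and 70.7 CPM in ob/ob (log2 change 4.62 ± 0.27, edgeR adjusted p = 4.05e-07). No other of the 19 tested genes of anchor synthesis passed (median 0.10). Slc39a8, a zinc and manganese importer, was at 18.1, 44.5, 3.53 and 16.3 CPM in db/db and at 0.0956, 0 and 0.539 CPM in ob/ob, 5 UMIs in all (log2 change 6.97 ± 0.98, adjusted p = 0.00143). Its spread within db/db was wide, with library b124 lowest. Within library numbers above 110 its adjusted p was 0.184.

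H2-Aa, H2-T22 and Defb48 were among the genes with almost no ob/ob signal, while Defb41, of the same family as Defb48, fell. H2-Aa, a class II chain that presents antigen in immune cells, was at 110.2, 143.4, 48.6 and 114.5 CPM in db/db and at 1.77, 1.99 and 2.15 CPM in ob/ob (log2 change 5.75 ± 0.41, edgeR adjusted p = 2.58e-06). Macrophage markers, whose cells normally carry class II, summed to 18.9 to 70.8 CPM in db/db and 23 to 56.4 CPM in ob/ob. Only 2 of the 11 macrophage markers in the table had enough counts to be tested and neither passed in edgeR (0 at an unadjusted p below 0.05). H2-T22, a class I-like gene with close copies among which reads may be split, was at 63.5, 56.4, 26.9 and 42.2 CPM in db/db and at 0.622, 0.531 and 0.359 CPM in ob/ob (log2 change 6.41 ± 0.43, adjusted p = 1.64e-06). Of 8 tested genes of the histocompatibility and antigen processing list, 1 rose and 0 fell (median 0.12). The gene that rose was H2-Aa itself, and H2-T22 was not on that list. Of 6 tested interferon response genes 0 rose and 1 fell. That gene was Bst2, which tethers budding virus, at 11.3 to 16.7 CPM in db/db and 22.4 to 33.6 CPM in ob/ob (log2 change -1.10 ± 0.26, adjusted p = 0.045). It missed the threshold without 6 of the 7 libraries in turn, all but library b125 (adjusted p up to 0.197).

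Defb48, of the beta-defensin family, was at 23.3, 32.1, 37.9 and 28.8 CPM in db/db and had no UMI in the 3 ob/ob libraries. Against a floor of 3 UMIs per ob/ob library it was at least 86.7-fold higher in db/db (edgeR adjusted p = 1.69e-06). Ifnk, an interferon gene, also had no ob/ob UMI. Its 234 db/db UMIs gave 4.2 to 9.4 CPM, at least 19.6-fold higher (adjusted p = 0.000277). Skint5, of a family of immunoglobulin-like genes with many close copies, had 467 UMIs in db/db and 1 in ob/ob. That is a ratio of 441, with an exact 95% interval for counting error of 78.8 to 17457 (adjusted p = 6.1e-05). Defb41 went the other way, at 4.54 to 18.7 CPM in db/db and 50.5 to 97.8 CPM in ob/ob (log2 change -2.88 ± 0.40, adjusted p = 0.00129). It missed the threshold with library b107 added.

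The remaining large rises had varied roles. Arhgef15, a gene known from blood vessels, was at 49.6, 58.9, 65.5 and 17.8 CPM in db/db and at 0, 0.398 and 0 CPM in ob/ob, where it had 3 UMIs. The ratio was 617, with a counting interval of 211 to 2993 (edgeR adjusted p = 2.79e-05). Endothelial markers summed to 26.3 to 47.9 CPM in db/db and 27.6 to 35.2 CPM in ob/ob, and none of the 3 tested passed in edgeR (0 at an unadjusted p below 0.05). Tceal8, of a family related to transcription elongation factors, was at 119.4, 123.98, 121.9 and 86.3 CPM against 4.78, 4.52 and 9.7 CPM (log2 change 4.20 ± 0.32, adjusted p = 5.99e-06). Fam3b, a secreted protein best known from pancreatic islets, was at 39.4 to 111.2 CPM in db/db and 5.45 to 8.61 CPM in ob/ob (log2 change 3.58 ± 0.36, adjusted p = 7.74e-05). Ccpg1os, an antisense transcript, was at 41 to 48.6 and 3.59 to 6.91 CPM (log2 change 3.09 ± 0.29, adjusted p = 4.13e-05), and its reads cannot be told from those of its partner gene where counting ignores strand. Both Fam3b and Ccpg1os missed the threshold with library b107 added.

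**Figure D2:**
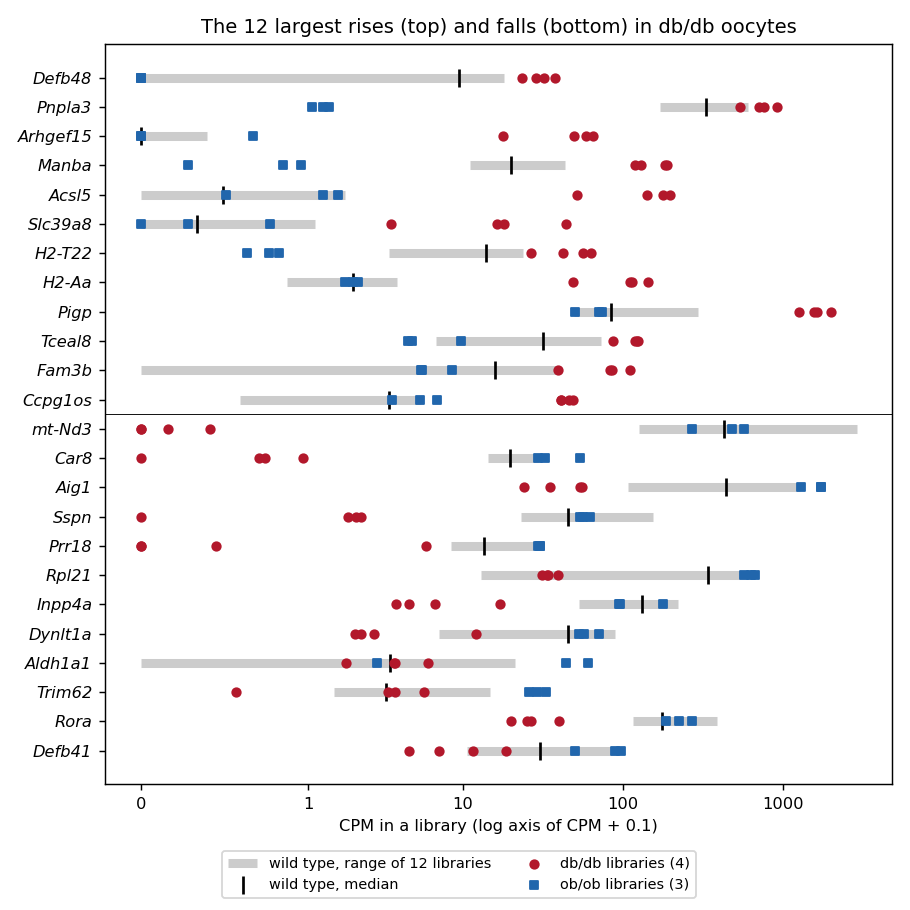
CPM per library on a log axis of CPM + 0.1 for the 12 largest rises and the 12 largest falls in db/db: red circles are the 4 db/db libraries, blue squares the 3 ob/ob libraries, grey bars the range and black ticks the median of 12 wild type libraries. Red and blue do not overlap in 23 of these genes, and Aldh1a1 is the exception. Groups likewise did not overlap in 219 of the 220 called genes they were taken from and in 13.1% of all genes tested. The wild type median lies near ob/ob for Acsl5, H2-Aa and Pigp but far above ob/ob for Pnpla3. Wild type libraries were not matched for oocyte state.

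Mitochondrially encoded transcripts were lower in db/db as a group. Of 10 listed genes tested, 8 passed, all of them lower, beside 1.90% of all genes tested. The list's median log2 change was -1.49 against 0.02 for all genes. Over all 19 mitochondrially encoded rows tested, 10 passed. With limma on the mean CPM of cells, which gives every cell equal weight, 3 of the list passed. mt-Nd3, a subunit of respiratory complex I, was at 0, 0.0488, 0 and 0.168 CPM in db/db and at 268, 477 and 569.5 CPM in ob/ob. Only 2 UMIs were counted in db/db against 12374 in ob/ob, a ratio of 6551 with a counting interval of 1813 to 54101 (edgeR adjusted p = 5.15e-09). It was also almost uncounted in db/db somatic libraries, and whether this is lost expression or reads not assigned to the gene cannot be told apart from counts. The other members differed far less. mt-Nd5 was at 255, 165, 146.3 and 182 CPM in db/db and at 532, 614 and 961 CPM in ob/ob (log2 change -1.91 ± 0.26, adjusted p = 0.000918). mt-Nd4 was at 594 to 888 and 1699 to 2927 CPM (log2 change -1.60 ± 0.24, adjusted p = 0.00264), and mt-Nd6 at 173 to 269.8 and 458 to 882 CPM (log2 change -1.62 ± 0.25, adjusted p = 0.00277). All 3 encode complex I subunits, and mt-Nd4 and mt-Nd6 missed the threshold with limma on the mean CPM of cells (adjusted p = 0.0909 and 0.108). The lower ob/ob values lay in library b102. The share of mitochondrial UMIs is itself a measure that sets library b107 apart from the 7 libraries, and its part in these calls was not tested. With library b107 added, mt-Nd3 was the 1 member of the list that passed. Within library numbers up to 110 (2 db/db, 1 ob/ob library) 2 members passed, and above 110 (2 against 2) 3 did.

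Nuclear genes of mitochondria did not share this shift. Of 69 tested nuclear genes of oxidative phosphorylation 0 rose and 1 fell (median -0.08). That gene was Cox5b, a subunit of cytochrome c oxidase, at 195 to 383 CPM in db/db and 576 to 673 CPM in ob/ob (log2 change -1.31 ± 0.24, adjusted p = 0.011), and it missed the threshold without library b144 (adjusted p = 0.068). None of 22 tested genes of mitochondrial dynamics and genome upkeep passed in edgeR (median 0.10), with 2 below an unadjusted p of 0.05 and 1 called by DESeq2. A pair of genes outside the lists went up: Ndufaf6, an assembly factor of complex I, at 139.4 to 179 CPM in db/db and 29 to 32.3 CPM in ob/ob (log2 change 2.34 ± 0.21, adjusted p = 3.06e-05), and Samm50, of the outer membrane sorting machinery, at 64.9 to 90.4 and 14 to 38.7 CPM (log2 change 1.71 ± 0.32, adjusted p = 0.011). Nnt, a mitochondrial transhydrogenase used as a strain marker, was near the detection limit in both groups, with 23 and 31 UMIs. It was as low in wild type oocytes (median 0.872 CPM, 0.491 to 2.60), so its level in oocytes does not tell the strains apart. In somatic libraries its mean was 26.2 CPM in db/db and 23.6 CPM in ob/ob.

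Ribosomal protein genes leaned lower in db/db, and a small number of them passed. Of 72 tested, 5 fell (Rpl21, Rpl23, Rps28, Rps15a and Rps18) and 0 rose, 60 had a negative log2 change, and the median was -0.39. Rpl21 stood apart, at 34.3, 33.6, 39.5 and 31.3 CPM in db/db and 668, 631 and 568 CPM in ob/ob (log2 change -4.17 ± 0.20, edgeR adjusted p = 6.47e-08). Rpl23 was at 60.3 to 120.5 and 277 to 315 CPM, Rps28 at 133.2 to 174 and 364 to 544 CPM, and Rps15a at 171 to 223 and 480.2 to 699 CPM. Their log2 changes were -1.76 ± 0.23, -1.61 ± 0.21 and -1.51 ± 0.21, with adjusted p of 0.000883, 0.000758 and 0.00129. These genes have many near-identical processed copies in the genome, and how the authors' counting shared such reads is not given in the sources used here. With library b107 added the median of the list was -0.07 and 1 member passed. Ubb, a polyubiquitin gene, was at 2085, 1730.4, 2108 and 4441 CPM in db/db and 13918, 7554 and 9681 CPM in ob/ob (log2 change -2.003 ± 0.32, adjusted p = 0.00456).

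Among the other falls, Aig1, an androgen-induced hydrolase of fatty acid esters of hydroxy fatty acids, was at 54.4, 35.3, 56 and 24.2 CPM in db/db and at 1704, 1282 and 1717 CPM in ob/ob (log2 change -5.21 ± 0.31, edgeR adjusted p = 4.16e-07). Sspn, a membrane partner of the dystrophin complex, was at 2.23, 2.1, 0 and 1.85 CPM in db/db and 56.7, 53.9 and 62.3 CPM in ob/ob (log2 change -5.19 ± 0.50, adjusted p = 5.13e-05). Car8, a carbonic anhydrase relative without enzyme activity, was at 0.496, 0.927, 0.441 and 0 CPM in db/db and 29.6, 32.5 and 54 CPM in ob/ob (log2 change -6.04 ± 0.49, adjusted p = 1.02e-05). In each of these genes the db/db libraries lay close together and far below ob/ob. Rora, a nuclear receptor of the circadian clock and of lipid metabolism, was at 25.3, 26.7, 39.8 and 20.2 CPM in db/db and 184, 224 and 270.4 CPM in ob/ob (log2 change -3.01 ± 0.26, adjusted p = 1.82e-05).

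Inpp4a, a phosphatase of phosphoinositide signals, was at 3.76 to 17.2 CPM in db/db and 95.2 to 179 CPM in ob/ob (log2 change -3.96 ± 0.46, adjusted p = 0.000277). Dynlt1a, a dynein light chain gene with near-identical neighbours, was at 2.06 to 12.1 and 53 to 71.5 CPM (log2 change -3.70 ± 0.51, adjusted p = 0.00127). Both missed the threshold within library numbers above 110. Trim62, a ubiquitin ligase, was at 0.294 to 5.71 and 26 to 33.2 CPM (log2 change -3.21 ± 0.50, adjusted p = 0.00316). It missed the threshold there too, and Trim62 and Dynlt1a also did with library b107 added. Prr18, a proline-rich protein, was at 0, 0.195, 0 and 5.89 CPM in db/db and 30.3, 29.5 and 30.5 CPM in ob/ob (log2 change -4.45 ± 0.89, adjusted p = 0.0187). Library b125 held nearly all of its db/db counts, and the call was lost without library b92, b134 or b144 (adjusted p from 0.0513 to 0.068).

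Aldh1a1, an enzyme of retinoic acid synthesis that also marks theca cells, was at 3.72, 1.8, 3.67 and 6.05 CPM in db/db and at 2.87, 44 and 60.5 CPM in ob/ob (log2 change -3.27 ± 0.72, edgeR adjusted p = 0.0332). Library b102 lay within the db/db range. Theca markers as a whole summed to 69.6, 65.2, 54.1 and 109.2 CPM in db/db and to 67.6, 196 and 206 CPM in ob/ob, with library b102 again among the db/db values. Of 7 tested theca markers Aldh1a1 was the 1 that passed, 6 had a negative log2 change, and the median was -1.88. Within library numbers up to 110, where library b102 is the ob/ob library, that median was -0.07. The call on Aldh1a1 was lost without library b92, b93, b124, b134 or b144 (adjusted p from 0.0805 to 0.181). It was also lost with the library number range as covariate (adjusted p = 0.0807), with limma (0.101), with library b107 added (0.733), with all 20 oocyte libraries (1) and within library numbers up to 110 (0.9997). Stroma markers summed to 4.16 to 14.6 CPM in db/db and 10.1 to 26.9 CPM in ob/ob, and luteal markers to 48.9 to 81.4 and 42.9 to 126.2 CPM. Granulosa markers summed to 392 to 615 and 352 to 486 CPM, and of 12 tested none passed in edgeR (median -0.56, 1 below an unadjusted p of 0.05). Of the 7 red blood cell markers 5 were at 0 in all 7 libraries. The part of such cells in the other calls was not tested.

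Most oocyte genes did not pass. None of the 17 tested oocyte markers passed in edgeR (median log2 change 0.07), nor any of 11 zona pellucida and secreted factors, 11 oocyte transcription factors, 17 genes of DNA methylation and imprint protection, 23 of meiotic arrest and resumption, 22 of maternal mRNA storage and decay and 18 of piRNA and transposon defence (medians from 0.09 to 0.17). At an unadjusted p below 0.05 the markers had 2 genes, and the other lists 1, 0, 0, 4, 0 and 2 in that order, against 11.9% of all genes tested. DESeq2 and limma called 0 in each of these 7 lists. Gdf9, a growth factor sent to granulosa cells, was at 1821 to 2829 CPM in db/db and 1856 to 3250.4 CPM in ob/ob (adjusted p = 0.958). Its partner Bmp15 was at 560.2 to 932 and 831 to 917 CPM (adjusted p = 0.697). The zona pellucida genes Zp1, Zp2 and Zp3 gave adjusted p of 0.446, 0.376 and 0.763.

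Single oocyte genes did pass. Oog1, an oocyte-specific gene with close copies, was at 81.4, 93, 114.3 and 78.5 CPM in db/db and at 175, 182 and 196 CPM in ob/ob, so the groups did not overlap (log2 change -1.01 ± 0.20, edgeR adjusted p = 0.0187). Khdc3, of the subcortical maternal complex of the egg, was at 903, 1455, 832 and 1635 CPM in db/db and at 441, 573 and 549.6 CPM in ob/ob (log2 change 1.21 ± 0.26, adjusted p = 0.0318), the 1 of 24 tested maternal effect genes that passed (median 0.12). The call was lost without library b93, b125, b102, b134 or b144 (adjusted p from 0.0591 to 0.135). Sycp3, an axis protein of meiotic chromosomes and the 1 of 13 tested genes of meiotic cohesin and the spindle checkpoint that passed (median 0.24), was at 74.6 to 131.04 CPM in db/db and 43.6 to 45.2 CPM in ob/ob (log2 change 1.23 ± 0.23, adjusted p = 0.0123), and lost the call without library b102, b134 or b144 (adjusted p from 0.0555 to 0.0893). Outside the lists, Msh5, which stabilises crossover intermediates, was at 4.99 to 11.4 and 0.398 to 2.39 CPM (log2 change 2.73 ± 0.53, adjusted p = 0.0155). Meiob, a meiotic single-strand DNA binding protein, was at 3.03 to 4.15 and 0.18 to 0.531 CPM (log2 change 3.66 ± 0.61, adjusted p = 0.00555).

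Among stress genes, Gsta4, a glutathione transferase for products of lipid peroxidation, was at 259 to 521 CPM in db/db and 135.4 to 178 CPM in ob/ob (log2 change 1.17 ± 0.26, adjusted p = 0.033). It was the 1 of 26 tested genes of oxidative stress defence that passed (median 0.04), and it missed the threshold without library b92, b93, b102, b134 or b144 (adjusted p from 0.0655 to 0.218). Gsta2, a relative on the same chromosome, was at 41 to 58.6 and 10.5 to 17.1 CPM (log2 change 1.97 ± 0.26, adjusted p = 0.000883). Glo1, which detoxifies methylglyoxal, was at 37.2 to 62.4 and 15.1 to 20.1 CPM (log2 change 1.45 ± 0.25, adjusted p = 0.0081). None of 27 tested genes of the unfolded protein response and ER chaperones (median 0.21) and none of 20 genes of glycolysis and pyruvate use (median 0.23) passed in edgeR, with 6 and 0 below an unadjusted p of 0.05 and 1 and 0 called by DESeq2. Of the egg surface and adhesion list 1 of 18 rose and 1 fell. Anxa2, a membrane-binding annexin, was the gene that rose, at 61.6 to 132.6 and 27.5 to 38.8 CPM (log2 change 1.59 ± 0.29, adjusted p = 0.00981), and it lost the call without library b134 or b144 (adjusted p of 0.0673 and 0.0881). Over the 25 pathway lists, 15 had a passing member and 12 of these had exactly 1. Beside the 1.90% of all genes called, a single call in a list is no result about the list. In simulated data with the depth and spread of these 7 libraries, changed genes were recovered in 28% of cases at a log2 of 1, in 87.5% at a log2 of 2 and in 100% at a log2 of 4, over 11291 genes. Genes were drawn independently in that simulation, without effects shared across the genes of a library. Its shares therefore hold for that setting only.

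Pnpla3 and mt-Nd3 differed cell by cell. Pnpla3 had a UMI in 194 of 194 db/db cells and in 24 of 177 ob/ob cells, and mt-Nd3 in 2 of 194 and in 177 of 177. The lowest db/db cell had 95.5 CPM of Pnpla3 and the highest ob/ob cell 36.2 CPM. For mt-Nd3 the highest db/db cell had 25.7 CPM and the lowest ob/ob cell 60.6 CPM, so single cells of the 2 genotypes did not overlap in either gene. Median depth differed between libraries, and with each cell thinned to 3000 UMIs, which left out no cell, Pnpla3 was seen in 86.1% of db/db and 0 of 177 ob/ob cells and mt-Nd3 in 0 of 194 and 73.4%. Pigp was seen in 87.6% of db/db and 16.9% of ob/ob cells at that depth (99% and 85.9% before thinning). Aig1 was seen in 10.3% and 97.7% (72.7% and 100% before). Rpl21 was seen in 8.76% of db/db and 79.7% of ob/ob cells at that depth, and Rora in 7.73% and 42.9%. The other genes thinned were seen in few cells in either genotype. H2-Aa was seen in 21.6% and 0.565%, Manba in 20.1% and 0 of 177 and Acsl5 in 19.1% and 0.565%. H2-T22 was seen in 10.8% and 0 of 177, Sspn in 0 of 194 and 15.3% and Car8 in 0 of 194 and 2.82%. Cells of 1 library are not replicates, and these shares carry no test.

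**Figure D3:**
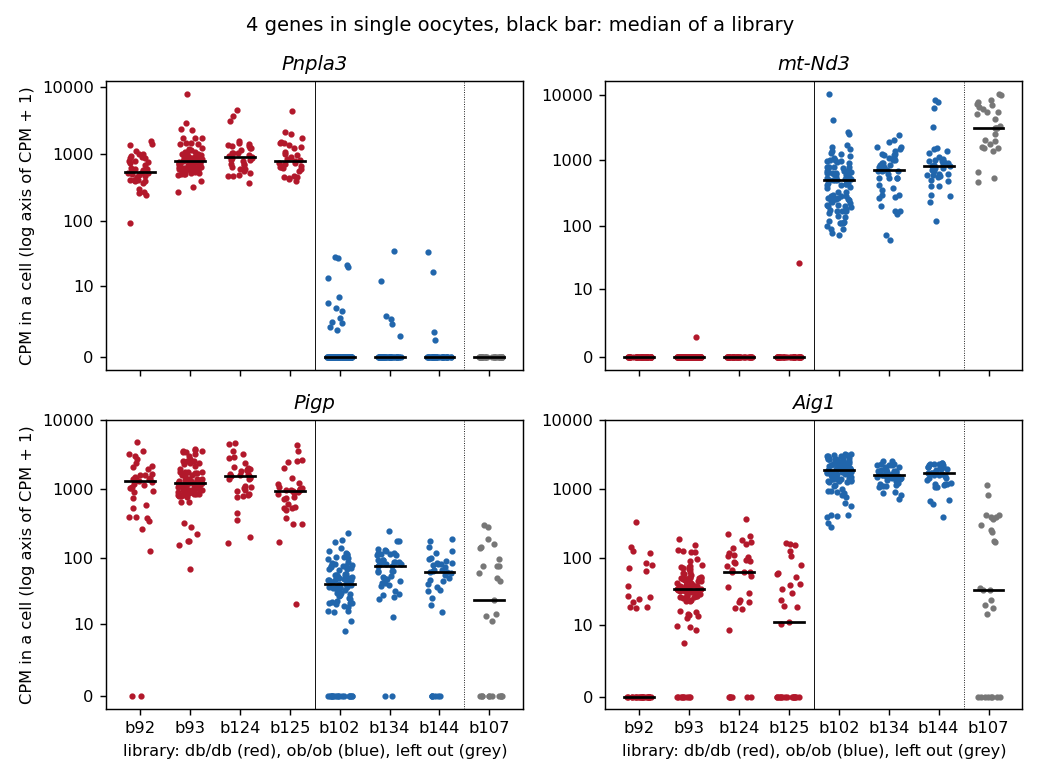
CPM of Pnpla3, mt-Nd3, Pigp and Aig1 in single oocytes on a log axis of CPM + 1, 1 dot per cell and 1 column per library, with db/db in red, ob/ob in blue, library b107 in grey and black bars at library medians. In Pnpla3 and mt-Nd3 no cell of one genotype reaches the other's range, whereas Pigp and Aig1 hold some cells at 0 or in between.

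Library b107 was not used in the calls and shares the ob/ob label. It had no Pnpla3 UMI in 27 cells and 1863 CPM of mt-Nd3. It lay below every db/db library in 83 of the 88 genes higher in db/db. Among the genes lower in db/db it lay above every db/db library in 69 and did not in the rest. A gene that is off in the other oocyte state also counts in the first number, and one that is higher in that state counts in the second. The same shares over all genes tested were not taken. Whether library b107 goes with ob/ob in the called genes more often than in other genes was therefore not tested. With library b107 added to the fit 36 genes passed (0.322% of 11180 tested), all 36 of them among the 220. Levels in the wild type oocytes differed by gene. Of the 88 genes higher in db/db, the wild type median was nearer db/db for 30 and nearer ob/ob for 58 (on log2(CPM + 1)). Of the lower genes it was nearer db/db for 57 and nearer ob/ob for 75. Over all genes tested these counts were not taken. Mitochondrial transcripts took 1.25% to 15.9% of UMIs over the 12 wild type libraries, against 17.6% in library b107. Wild type libraries were not matched for oocyte state, so these counts do not show which mutant departs from wild type. Pnpla3 had a wild type median of 331 CPM (169 to 598 over 12 libraries) and Manba 20 CPM (11 to 43.6), far above ob/ob in both. For Manba every db/db library also lay above the highest wild type library. Acsl5 had a wild type median of 0.223 CPM (0 to 1.78), H2-Aa 1.99 CPM (0.715 to 3.85) and Pigp 84.8 CPM (49.6 to 294), which lay with ob/ob. The wild type median was 429 CPM for mt-Nd3 (126.8 to 2856) and 337 CPM for Rpl21 (13 to 612). It was 45.4 CPM for Sspn (23.2 to 155) and 176 CPM for Rora (115.6 to 385). By these medians the low group was db/db. For Rpl21, however, the lowest wild type library, at 13 CPM, lay below every db/db library.

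The genes that passed lay unevenly along the genome. By the gene order of RefSeq's GRCm38.p6 assembly, used here for chromosome and neighbourhood only, 11536 tested genes and 210 of the 220 called genes were placed, and the other 10 called were mitochondrial. The share called was 5.18% on chromosome 17 (29 of 560), 3.55% on chromosome 15 and 3.53% on chromosome 9, against 1.90% for all genes tested and 0.333% to 0.351% on chromosomes 18, 2 and 7. Of the 419 next neighbours of called genes, 36 were called themselves (8.59%). With at most 10 tested genes between successive members, 91 called genes formed 20 groups of 3 or more. How many such groups would form with the called genes placed at random was not taken. On chromosome 15, Nfam1, Bik, Ttll12, Sult4a1, Pnpla3, Samm50 and Arhgap8 were called among 21 consecutive tested genes, 6 higher and 1 lower. Bik, a pro-apoptotic gene of this group, was at 87.9 to 157 CPM in db/db and 24.6 to 31 CPM in ob/ob (log2 change 2.24 ± 0.25, adjusted p = 0.000185). On chromosome 17, groups of 7 and 5 held H2-T22, Msh5, Tubb5, Rps28, Rps18 and H2-Aa, and a group of 4 held Glo1, all 4 of it higher in db/db. On chromosome 9, Khdc3 was in a group of 6 among 11 consecutive tested genes, and Gsta4 and Gsta2 in another group of 6. Lepr was in a group of 6 on chromosome 4 with Atg4c, Gm12718, Fyb2, Mroh7 and Tceanc2, of which 5 were lower and 1 higher. No test was run on these positions.

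**Figure D4:**
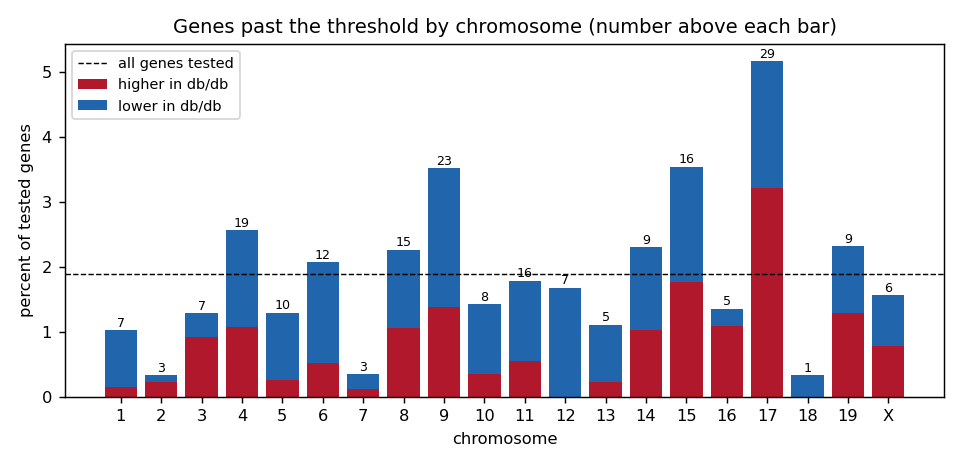
Percent of the tested genes of each chromosome that passed the threshold, split into higher (red) and lower (blue) in db/db, with the number called above each bar and a dashed line at the 1.90% of all tested genes. Chromosome 17 is highest at 5.18% with 29 genes, and chromosomes 2, 7 and 18 hold 3, 3 and 1.

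The same genotypes were compared in whole somatic libraries, 30 db/db and 31 ob/ob, which hold mixed cell types. Fewer cells of a type and less RNA per cell cannot be told apart there. Of 11501 genes 166 passed (1.44%), 64 of them higher in db/db and the others lower. Without the low count filter 2707 passed, and the number called in both comparisons below was 78 in place of 27. Of the 220 oocyte genes all but 86 were tested in somatic libraries, and 27 passed in both, which is 12.3% of the oocyte calls and 16.3% of the somatic calls. All 27 had the same sign, 9 higher and 18 lower in db/db. Among all called oocyte genes tested there, passing or not, 97 had the same sign and the others had the opposite sign. How often signs matched over all genes tested in both comparisons was not taken, so the 97 have no background. Pnpla3 was at 20.8 ± 49.7 CPM in db/db somatic libraries and 0.313 ± 0.984 CPM in ob/ob (SD; log2 change 5.97, edgeR adjusted p = 8.5e-07), and mt-Nd3 at 1.46 ± 1.64 and 316 ± 133.6 CPM (log2 change -7.70, adjusted p = 1.4e-27). Rpl21 was at 150.4 ± 64.2 and 1342 ± 421 CPM (log2 change -3.16), and Ubb at 2722 ± 1492 and 8412 ± 4434 CPM (log2 change -1.63). Plbd1, a phospholipase-like gene, was at 10.4 to 12.4 CPM in db/db oocytes and 1.24 to 2.52 CPM in ob/ob oocytes (log2 change 2.59) and at 127.8 ± 52.8 and 24.4 ± 15.3 CPM in somatic libraries (log2 change 2.39).

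Other oocyte genes did not pass in somatic libraries. Pigp was at 121.1 ± 225 CPM in db/db and 79 ± 36.4 CPM in ob/ob (adjusted p = 0.34), Manba at 11.3 ± 17.5 and 8.97 ± 6.35 CPM (adjusted p = 0.79), Aig1 at 23.3 ± 34.6 and 22.2 ± 28.9 CPM (adjusted p = 0.98) and H2-Aa at 7.41 ± 18.3 and 4.62 ± 6.69 CPM (adjusted p = 0.78). The difference between oocyte and somatic effects was not tested. Of the mitochondrially encoded list 1 of 10 tested genes passed in somatic libraries (median -0.24), and of the ribosomal protein list 2 of 72, both lower (median 0.08). The zona pellucida gene Zp3 was at 279 ± 996 and 41.3 ± 106.2 CPM in db/db and ob/ob somatic libraries, a spread that shows oocyte mRNA in some of them, and 4 of the 14 oocyte markers tested there passed, all higher in db/db (median 2.01). The part of oocyte mRNA in the shared calls was not tested.

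**Figure D5:**
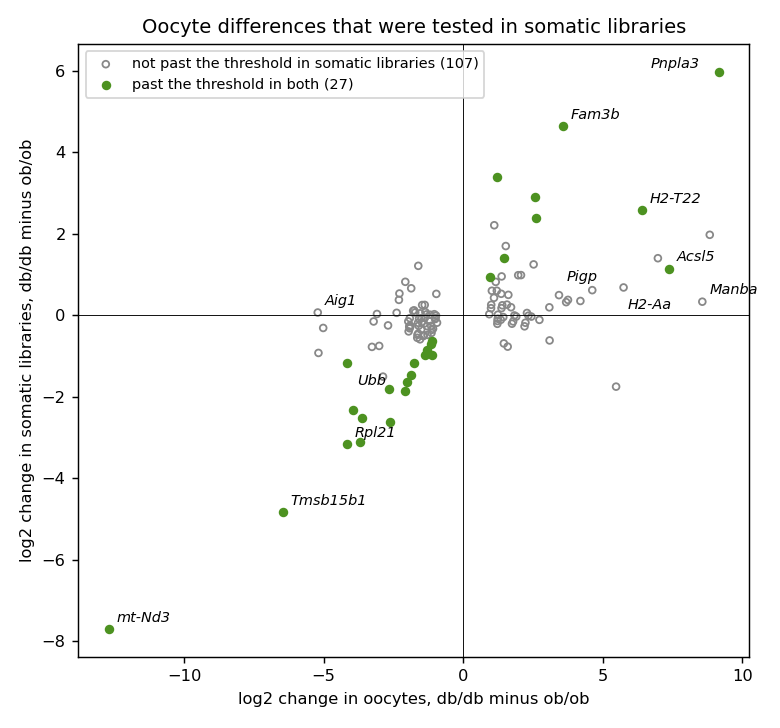
Log2 change (db/db minus ob/ob) in oocytes on the x axis and in whole somatic libraries on the y axis. Shown are the genes called in oocytes that were also tested in somatic libraries, with the 27 genes that passed in both in green. The green points lie in the lower left and upper right quadrants, from mt-Nd3 to Pnpla3, while Pigp, Manba and Aig1 lie near 0 on the somatic axis.

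The amount of RNA per oocyte could not be separated between the genotypes. The median of UMIs per cell was 15061, 147910, 86107 and 32550 in the db/db libraries and 84221, 92373 and 64342 in the ob/ob libraries, with the db/db values on both sides of all ob/ob values. The exact two-sided permutation test gave p = 0.914. Genes per cell were 2887, 8144, 5150 and 4297 in db/db and 6812, 6935 and 5632 in ob/ob (exact permutation p = 0.343). Endogenous UMIs per spike-in UMI were 61.1, 377, 643 and 598 in db/db and 186, 514 and 585 in ob/ob (exact permutation p = 1). With 35 ways to split 7 libraries this test cannot go below 0.0571, and all adjusted values over the 3 measures were 1. Within library numbers up to 110 the spike-in ratio was 61.1 and 377 against 186, and above 110 it was 643 and 598 against 514 and 585.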

How the data were processed

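UMI counts, unscaled, came from the authors in a single deposited table with genes in rows and cells in columns. The build was mm9 per the submitters' processing notes. Neither aligner nor counting tool nor strand setting is given in the sources used here. Of 13254 cell columns 6241 were not used here. The 92 ERCC spike-in rows and 3 RGC rows stayed out of totals and tests, and 37 mitochondrial rows were named through GENCODE. Counts of kept cells were summed per library and tested with edgeR 4.0.16 (filterByExpr, TMM, quasi-likelihood test, no covariate) in R 4.3.3, with Benjamini-Hochberg adjustment over all genes, called "adjusted p" throughout. CPM values are TMM-scaled, those of wild type and library b107 in a scaling of all 20 oocyte libraries. SE is the log2 change divided by the root of F. A floor of 3 UMIs stood in for groups at 0. No doublet caller was run on hand-picked cells. The same test on simulated data, with genes drawn independently, made 12 calls among unchanged genes.

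The libraries compared, the lists and the choice of genes to name were made with earlier results of these data known. Named are the 12 largest rises and 12 largest falls that passed (mean over a genotype of at least 20 CPM), predicted genes and pseudogenes aside, up to 4 passing members of each list, and 9 genes always: Lep, Lepr, mt-Nd3, Nnt, Gdf9, Bmp15, Zp1, Zp2 and Zp3. Acsl3, Plin2, Pnpla2, Ifnk, Skint5, Ndufaf6, Samm50, Bik, Ubb, Msh5, Meiob, Oog1, Gsta2, Glo1, Plbd1 and the neighbours named by chromosome were chosen after their values were seen. Alternatives used DESeq2 1.42.0, limma 3.58.1 (pseudocount 1), other filters and other sets of libraries.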

Additional observations from a re-analysis of the deposited data

Results flagged for a closer look

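Of 48 genes and measures whose 4 db/db libraries were searched for a single distant value by Dixon's test, 6 held one, where chance gives about 1 in 20. Tceal8 was at 86.3 CPM in library b125 and at 119.4 to 123.98 CPM in the other db/db libraries. Prr18 was at 5.89 CPM in library b125 and at 0 to 0.195 CPM in the others. Dynlt1a was at 12.1 CPM in library b125 and at 2.06 to 2.73 CPM in the others. Rps28 was at 174 CPM in library b92 and at 133.2 to 136.7 CPM in the others. Lep was at 0.441 CPM in library b124, from 3 UMIs, and at 0 in the others. Zp3 was at 3176 CPM in library b124 and at 5176 to 5247 CPM in the others. In Tceal8, Prr18, Dynlt1a and Rps28 the distant library still lay on the db/db side of every ob/ob library. The 3 ob/ob libraries were too few for this search.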

How the results depend on the processing

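No paired analysis was possible because the labels give the libraries no shared replicate numbers or animals. Of all genes tested 1.90% passed (220), against 0.322% (36) with library b107 added, 0.273% (36) with all 20 oocyte libraries in 1 fit, 3.49% (404) with the DESeq2 Wald test, 1.20% with limma on the mean CPM of cells and 1.97% (360) without the low count filter. Leaving out 1 library in turn gave 0.949% to 2.24%. The count fell by over 1.5 times without library b102 (1.16%), b134 (1.06%) or b144 (0.949%), all ob/ob. Added after seeing the data, library numbers above 110 alone gave 0.460% (53) and those up to 110 gave 1.45% (197). No called gene turned its direction where it was tested in these 20 settings. All of them reuse libraries that gave the calls, so this is no independent check. With library b107 added, 11 called genes were not tested. The stricter cell filter, the cell of more somatic markers left out, DESeq2 size factors, thinning, mitochondrial rows left out and the library number range as covariate gave 197 to 245 calls. Of the calls 40% were higher in db/db, against 58.3% with library b107 added and 61.1% with all 20 libraries. Somatic calls went from 166 to 2707 and genes called in both from 27 to 78 without the low count filter. The causes of these shifts were not tested. The difference in UMIs per cell, -9904 in db/db minus ob/ob, ran from -35739 to 8545 when 1 library was left out, and that in genes per cell from -2348 to -596. That in endogenous UMIs per spike-in UMI, -8.56, ran from -129.6 to 110.99 and was 59.96 with library b107, 18.3 with the stricter filter, 70.9 above and 33 up to library number 110.

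The 3 ob/ob libraries limit every oocyte comparison, and genes near 0 in 1 group rest on counting.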

Other observations

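Library b152 carries a label that names both db/db and ob/ob and entered no comparison. Its 92 kept cells were read for Pnpla3 and mt-Nd3, the genes in which labelled cells did not overlap. Taking Pnpla3 UMIs as a share of the UMIs of both genes, every cell of libraries b92, b93, b124 and b125 lay at 90% or above and every cell of libraries b102, b134, b144 and b107 at 10% or below. In library b152, 26 cells lay at 90% or above, 42 at 10% or below and 24 in between, with a median of 28.8%. The library held 6147 Pnpla3 UMIs and 6160 mt-Nd3 UMIs. All its kept cells with barcode numbers from 65 to 96 were below 50% and all with numbers from 19 to 32 above 50%. These were the longest runs, picked after they were seen. Elsewhere the cells changed sides repeatedly: numbers 33 to 41 were below 50%, 42 to 49 above and 50 to 51 below. No genotype was assigned to these cells.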
